A study of Bos taurus with 2 samples.

Results

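The 9 tricarboxylic acid (TCA) cycle genes described here are *CS*, *IDH2*, *IDH3A*, *IDH3B*, *OGDH*, *SUCLG1*, *SUCLA2*, *FH* and *MDH2*, 9 of 19554 genes with a value on the arrays. Of these 19554, 10637 are named by a gene symbol, and the rest are identifiers without a matched symbol, each counted as a gene, so a gene can be counted more than once. The 9 were taken by gene symbol as enzymes of the cycle, and probes were assigned to them by the accession given with each probe. The matched accessions gave 27 probes, and all 27 were marked by the scanner software as well above background on both arrays, so no filter on dim signals touched them. Probes listed under other identifiers may also measure these genes and were not used here. Fetuses of Japanese Black cattle were taken at 8.5 months post conception (day 260 ± 8.3 of gestation), from dams fed 120% (high nutrition, HN) or 60% (low nutrition, LN) of their requirement from before pregnancy onwards. All dams were inseminated with male-sorted semen of the same sire. The array RNA came from the *longissimus thoracis* (LT) muscle of 4 fetuses of each diet, the heaviest of the HN group and the lightest of the LN group, mixed into a pool per diet, and a pool filled 1 one-color bovine array of Agilent, both on the same slide. Diet and the selection by bodyweight cannot be told apart, the spread between fetuses is not known, and no test between the pools was possible.

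The TCA cycle runs in the mitochondrial matrix. It joins acetyl-CoA from pyruvate and fatty acids to oxaloacetate, releases the carbon as carbon dioxide, and passes electrons to NAD and ubiquinone for the respiratory chain. Its intermediates also feed and drain amino acid metabolism, and muscle fibers rich in mitochondria hold more of its enzymes. Citrate synthase, the product of *CS*, catalyzes the entry reaction and is a common marker of mitochondrial content.

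None of the 9 genes passed the fold threshold that the study used for its pathway analysis, which is a log2 LN/HN of 0.32 in either direction (25% higher or 20% lower in LN). Of all 19554 genes, 9.11% were past this threshold lower (1781 genes) and 8.85% higher (1731 genes) in the LN pool. These counts were 2693 and 1191 when arrays were scaled by their 75th percentile, 2260 and 1462 without normalization, and 391 and 319 with median spot signals corrected by normexp in place of the processed signals. The lowest value of the 9 was that of *OGDH* (log2 LN/HN -0.25, 0.842-fold) and the highest that of *CS* (0.18, 1.13-fold). The log2 LN/HN is the difference of the quantile-normalized log2 signals, averaged over the probes of a gene. Values were below 0 in 5 genes and above 0 in 4 (50.7% of all genes were below 0), and their median was -0.062, against -0.0033 over all genes. These values lay between the 10th and the 90th percentile of all genes (-0.31 and 0.30). Genes of low signal spread more on these arrays, and so the 9 were also set beside the 3870 genes measured on both arrays with a signal at least that of the dimmest of them. In this set 3.62% of the genes were past the threshold lower and 2.45% higher. Its distribution was narrower, with 6.36% of the genes below *OGDH* and 90.6% below *CS*, so these lay outside its 10th to 90th percentile and the other 7 genes inside. The median size of the log2 LN/HN without its sign was 0.095 in the 9 genes, 0.090 in the 3870 genes and 0.14 in all genes. In such bulk tissue, the number of cells of a type and the RNA per cell cannot be told apart.

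**Figure D1:**
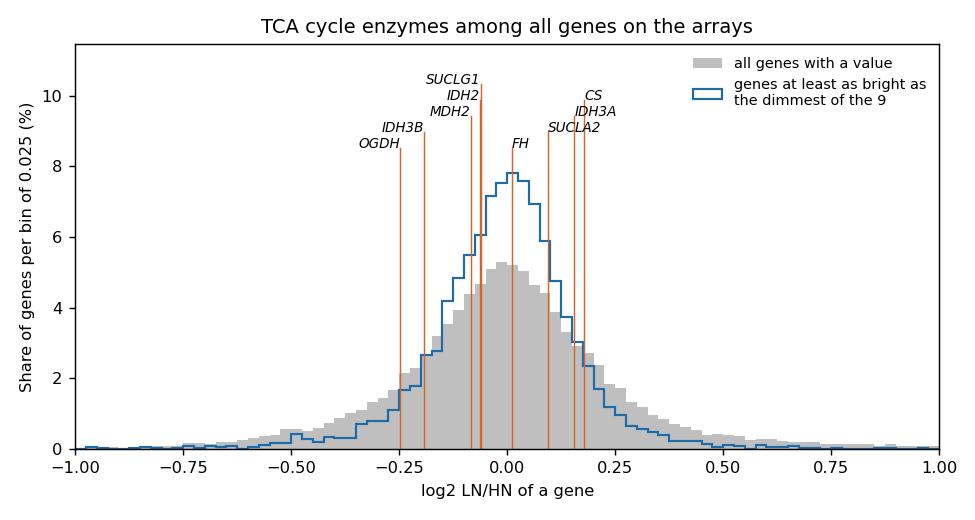
Distribution of log2 LN/HN (x axis) over all 19554 genes (gray) and over the 3870 genes at least as bright as the dimmest of the 9 (blue outline), as the share of genes per bin (y axis, %); values beyond -1 and 1 are not drawn. The orange lines mark the 9 TCA cycle genes, from *OGDH* (-0.25) to *CS* (0.18). All lie within the central part of the gray distribution, whereas *OGDH* and *CS* lie toward the edges of the narrower blue one.

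The error of the array itself was of the same size as most of these values. Between the spots of the 42 probes printed more than once, log2 LN/HN had an SD of 0.085, and the median SD between the probes of a gene was 0.098 over 6896 genes. The error estimate of the software was 10% to 10.2% of the signal in each member probe, which corresponds to a log2 error of 0.20 to 0.21 for the ratio of a single probe. This share was nearly the same for all member probes, each printed as 1 spot, so it is an estimate of the software and not a measured spread. Of the 27 probes, 15 were lower and 12 higher in the LN pool. The software error was exceeded by 6 of them, and the share over all probes is not given here. In 4 genes (*CS*, *IDH3A*, *IDH3B* and *OGDH*) the mean was farther from 0 than 0.098. Values of this size were common. At the nearby value of *SUCLA2* (0.095), 62.8% of all genes and 47.7% of the 3870 bright genes were farther from 0. A mean beyond 0.098 thus does not set a gene apart from other genes. The array errors given here say nothing about the variation between animals.

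**Figure D2:**
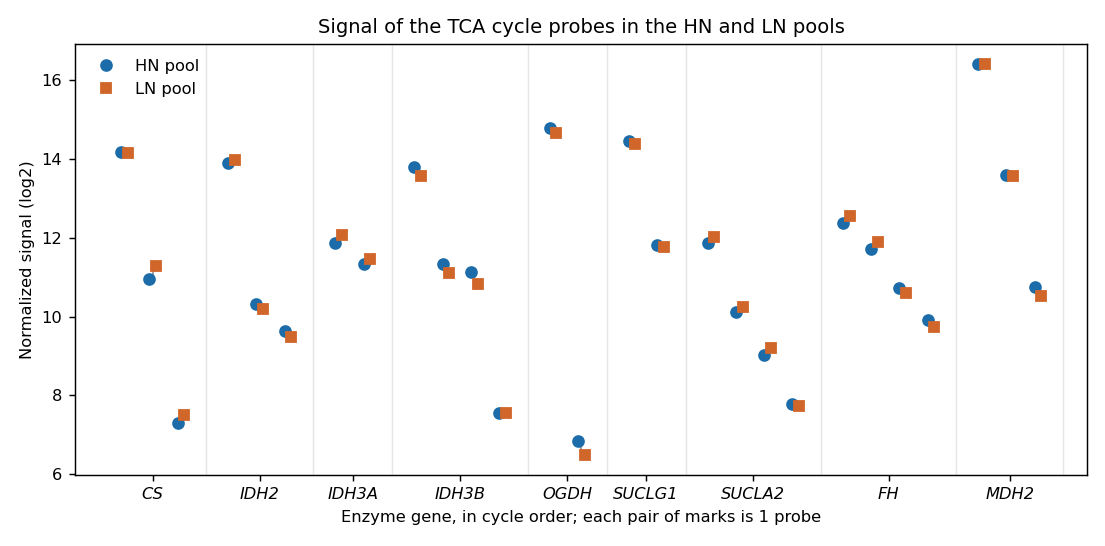
Quantile-normalized log2 signal (y axis) of each of the 27 probes in the HN pool (blue circles) and the LN pool (orange squares), grouped by gene in the order of the cycle (x axis), with a single array per pool and thus no error bars. The marks of a probe lie close together throughout, while probes of the same gene differ widely in signal, such as those of *OGDH* at 14.78 and 6.85 in the HN pool.

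*CS*, which condenses acetyl-CoA with oxaloacetate to citrate, had a mean log2 signal of 10.81 in HN and 10.98 in LN. Its 3 probes did not move together. The brightest had a scanner signal (before normalization) of 18477 in HN and 18427 in LN, and a log2 LN/HN of -0.011 after normalization. The middle probe went from 1943 to 2545, a log2 LN/HN of 0.35 and the highest of the 27 probes. The dimmest went from 156 to 182 (0.20). The brightest probe thus showed no difference beyond the error of a spot, and the higher mean of *CS* in the LN pool came from its dimmer probes. The SD between the 3 probes (0.18) was as large as the mean.

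Isocitrate is oxidized to 2-oxoglutarate by 2 kinds of mitochondrial enzyme. The NADP-dependent form is encoded by *IDH2*, which had a mean log2 signal of 11.28 in HN and 11.21 in LN (log2 LN/HN -0.063). Its brightest probe (0.082) showed no difference beyond the error of a spot, and the others were slightly lower in the LN pool (-0.13 and -0.14). The NAD-dependent form is a complex of the catalytic alpha subunit (*IDH3A*) with a beta (*IDH3B*) and a gamma (*IDH3G*) subunit. *IDH3A* had a mean log2 signal of 11.61 in HN and 11.77 in LN. Its probes went from 3703 to 4331 and from 2561 to 2873 in scanner signal, and gave log2 LN/HN values of 0.18 and 0.13, with a mean of 0.16 (1.11-fold, SD 0.041 between 2 probes). *IDH3B* had a mean log2 signal of 10.96 in HN and 10.77 in LN, and a log2 LN/HN of -0.19 (0.875-fold, SD 0.14 between 4 probes).

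The 4 probes of *IDH3B* refer to 2 transcripts. The probes with the accession NM_001145872 gave -0.21 at a scanner signal of 14162 in HN and 12386 in LN, and 0.0012 at 186 and 190. Those with NM_001167874 gave -0.24 (2562 and 2232) and -0.32 (2228 and 1841). The brighter 3 of the 4 probes were thus lower in the LN pool and the dimmest showed no difference beyond the error of a spot. All 4 values were below both values of *IDH3A*. Such a gap was the usual outcome among the pairs of cycle genes compared in this way, of which only *SUCLA2* and *SUCLG2* overlapped. Its share over all pairs of genes is not given here. The difference between the alpha and the beta subunit was 0.35 on the log2 scale, and it ranged from 0.32 to 0.40 over the 13 alternative settings of the processing. Of these settings, 6 could not change it, and all use the same 2 arrays. *IDH3G* had a log2 LN/HN of -0.19 (probes -0.21 and -0.16), close to that of *IDH3B*, and its difference from *IDH3A* was 0.34. Probes of a gene share the same pool of RNA and are not replicates, so these differences between subunits have no test.

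*OGDH*, the decarboxylating subunit of the oxoglutarate dehydrogenase complex, makes succinyl-CoA from 2-oxoglutarate together with *DLST* and *DLD*. It had a mean log2 signal of 10.82 in HN and 10.57 in LN, and its log2 LN/HN of -0.25 was the lowest of the 9. Both probes were lower in the LN pool, but by different amounts. The bright probe had a scanner signal of 28332 in HN and 25601 in LN (log2 LN/HN -0.13), and the dim probe had 116 and 89.3 (-0.37), the lowest of the 27. The mean of *OGDH* therefore rests in good part on a dim probe. With median spot signals corrected by normexp it was -0.15. Of the 27 probes, this one and the middle probe of *CS* were past the threshold, 1 in each direction, while 8.45% of the 18389 probes with at least the signal of the dimmest member probe were past it. The partners of *OGDH* had values nearer 0. *DLST*, the succinyltransferase, had a log2 LN/HN of -0.017 at a low signal (5.11 in HN and 5.09 in LN), and *DLD*, the dihydrolipoamide dehydrogenase shared with pyruvate dehydrogenase, of -0.014. The paralog *OGDHL* was not well above background on either array.

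Succinyl-CoA ligase, the only step of the cycle that yields ATP or GTP directly, pairs the alpha subunit encoded by *SUCLG1* with a beta subunit that uses ADP (*SUCLA2*) or GDP (*SUCLG2*). *SUCLG1* was nearly level, with a mean log2 signal of 13.13 in HN and 13.07 in LN and a log2 LN/HN of -0.062. Its probes agreed closely, at -0.073 (22314 and 21208) and -0.051 (3532 and 3519). *SUCLA2* had a mean log2 signal of 9.70 in HN and 9.80 in LN, and a log2 LN/HN of 0.095 (SD 0.099 between 4 probes). The 3 brighter probes of *SUCLA2* were each higher in the LN pool (0.15, 0.11 and 0.17), and the dimmest, at 217 and 215, was slightly lower (-0.048). *SUCLG2* was also higher, with a log2 LN/HN of 0.18 from 3 probes (0.056 to 0.30). All probes of *SUCLG2* and *SUCLA2* thus lay above both probes of the alpha subunit, but the dimmest of *SUCLA2* (-0.048) was almost level with the higher of these (-0.051). The difference between the means was 0.16 for *SUCLA2* and 0.25 for *SUCLG2*. That of *SUCLA2* ranged from 0.14 to 0.22 over the alternatives, 6 of which could not change it.

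*FH*, the fumarase that hydrates fumarate to malate, had a mean log2 signal of 11.19 in HN and 11.20 in LN. Its log2 LN/HN of 0.011 was the closest to 0 of the 9, yet it averaged probes that moved apart. The brighter pair was higher in the LN pool (0.17 from 5280 and 6086, and 0.20 from 3297 and 3891), and the dimmer pair was lower (-0.14 from 1665 and 1568, and -0.18 from 957 and 868). Its SD between probes (0.20) was the largest of the 9. *MDH2*, the mitochondrial malate dehydrogenase that restores oxaloacetate, had a mean log2 signal of 13.58 in HN and 13.50 in LN, and a log2 LN/HN of -0.084. Its brightest probe, at 86399 and 88086, gave 0.011, the next gave -0.034 (12262 and 12229), and the dimmest gave -0.23 (1685 and 1485). The brighter 2 probes thus showed no difference beyond the error of a spot, and the lower mean of *MDH2* in the LN pool came from its dimmest probe.

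**Figure D3:**
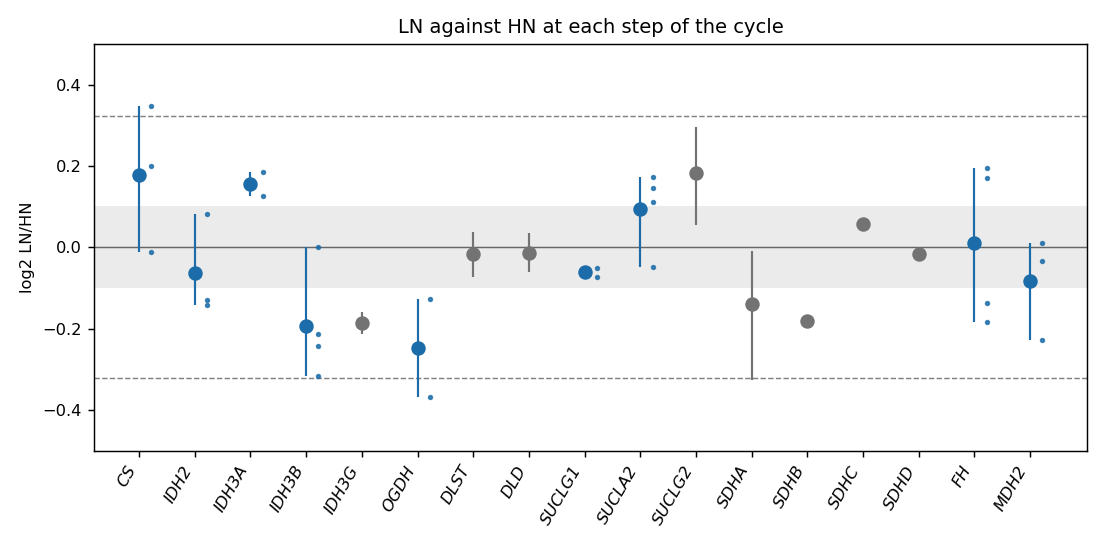
log2 LN/HN (y axis) of the genes of the TCA cycle in the order of its steps (x axis), with the 9 described genes in blue and the other enzymes in gray. Large dots are the mean over probes, vertical lines run from the lowest to the highest probe (they are not errors between animals), small dots are single probes of the 9 genes, the gray band is the median SD between probes of a gene (0.098) on either side of 0, and dashed lines mark the threshold of 0.32; no mean crosses them, and *IDH3A* lies above *IDH3B* and *IDH3G*.

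Ordered by log2 LN/HN, the genes ran from *OGDH* (-0.25) and *IDH3B* (-0.19) through *MDH2* (-0.084), *IDH2* (-0.063), *SUCLG1* (-0.062), *FH* (0.011) and *SUCLA2* (0.095) to *IDH3A* (0.16) and *CS* (0.18). Neighbors in this order differed by 0.0013 to 0.11, which was less than the larger SD between probes of either neighbor in every case. The order of neighbors is thus not resolved. Probes went the same way in 3 genes, namely *IDH3A* (higher) and *OGDH* and *SUCLG1* (lower). These are the genes with only 2 probes, so their agreement cannot be told apart from the number of probes. The other 6 genes, with 3 or 4 probes each, had probes on both sides of 0. Only in *FH* did probes of both directions exceed the SD between spots (0.085). The mean was farther from 0 than the gene's own SD between probes in *IDH3A*, *IDH3B*, *OGDH* and *SUCLG1*. Except for *IDH3B*, these SDs come from 2 probes each, so they do not rank the genes by reliability. The same share over all genes is not given here. Signals of different probes depend on their sequence, and so differences in signal between genes were not read as differences in transcript level.

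All of the 27 probes are also in the normalized log2 values of the authors, where no gene differed from the values given here by more than 0.016. Taking the brightest probe in place of the mean moved 4 genes (*CS*, *IDH2*, *OGDH* and *FH*) by more than 0.098, which no other alternative did. It gave -0.011 for *CS*, 0.082 for *IDH2* and 0.011 for *MDH2*, each of the other sign but within the SD between spots (0.085), and 0.17 for *FH*. *IDH3A* (0.18), *IDH3B* (-0.21), *OGDH* (-0.13), *SUCLG1* (-0.073) and *SUCLA2* (0.15) kept their sign, with *SUCLG1* also within that SD.

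**Figure D4:**
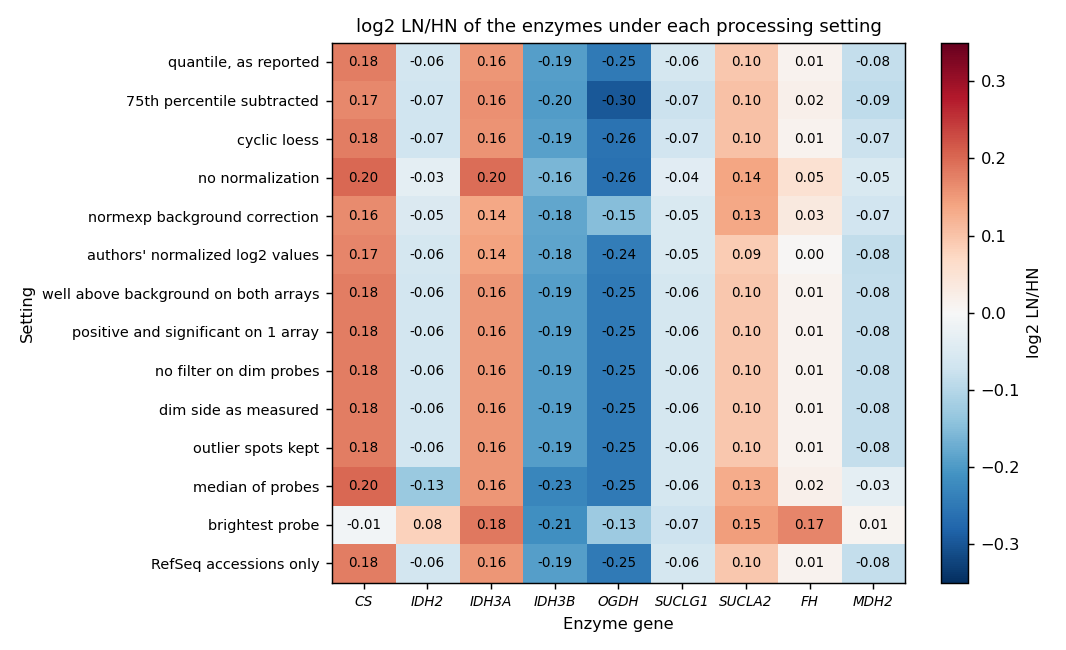
log2 LN/HN of the 9 genes (columns, in the order of the cycle) under the reported processing and each of 13 alternatives (rows), with the value printed in each cell and colored from blue (lower in LN) to red (higher in LN). The row of the brightest probe holds the 4 values that moved by more than 0.098; smaller shifts include *OGDH* after normexp (-0.15) and *IDH2* with the median of probes (-0.13). In all, 6 alternatives leave the values as reported because every probe was well above background, unflagged and of a RefSeq accession.

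Of 9 genes in the list of other cycle enzymes, 8 had a value, 6 were lower and 2 higher in the LN pool, and none was past the threshold. Their median was -0.016. Among the subunits of succinate dehydrogenase, which oxidizes succinate and is also part of the respiratory chain, the flavoprotein *SDHA* (-0.14, 4 probes from -0.33 to -0.0096) and the iron-sulfur protein *SDHB* (-0.18, 1 probe) were lower, and the membrane anchors *SDHC* and *SDHD* had values of 0.057 and -0.015. Over these and the 9 genes together, 17 with a value, the median was -0.017, with 11 lower and 6 higher.

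The genes that bring pyruvate into the cycle showed no larger differences. All 6 genes of this list had a value, 4 of them higher, with a median of 0.031. These were *PDHA1* (0.046), *PDHB* (-0.030), *DLAT* (0.016) and *PDHX* (0.10) of the pyruvate dehydrogenase complex and the pyruvate carriers *MPC1* (-0.0093) and *MPC2* (0.17). Lipoic acid is the cofactor of both 2-oxoacid dehydrogenase complexes. The 4 genes of its attachment and of complex assembly had a median of 0.034, from *LIAS* (-0.068) to *LIPT1* (0.23), and this median turned to -0.030 when arrays were scaled by their 75th percentile and to -0.0068 after normexp.

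Of 21 genes for branch reactions, anaplerosis and shuttles, 18 had a value, with a median of 0.022. In this list 4 genes (22.2%) were past the threshold in either direction, near the 18.0% of all genes (3512), and all 4 had signals below that of the dimmest of the 9 TCA cycle genes. The median size of the log2 LN/HN without its sign was 0.14, as in all genes. *PCK2*, the mitochondrial phosphoenolpyruvate carboxykinase that draws on oxaloacetate, went from a log2 signal of 6.85 in HN to 8.11 in LN, a log2 LN/HN of 1.26 from 1 probe. *ACO1*, an iron regulatory protein of the cytosol, had 0.43 from 2 dim probes (4.86 and 5.29). In the other direction, *PCK1*, the cytosolic carboxykinase, had -0.49 from 1 of its 3 probes (5.16 and 4.67), and *ME3*, a mitochondrial malic enzyme, had -0.43 from 1 probe (7.95 and 7.52).

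Gene lists of the same organelle gave similar medians. Of 20 nuclear-encoded genes of the respiratory chain, 17 had a value, 12 of them lower, with a median of -0.042 and a range from *UQCRC1* (-0.21), a core subunit of complex III, to *ATP5F1A* (0.035), the alpha subunit of ATP synthase. The 18 genes of general mitochondrial proteins had a median of 0.038, from the matrix protease subunit *CLPP* (-0.21) to the peroxiredoxin *PRDX3* (0.30). Of the 9 transcriptional regulators of mitochondrial enzymes, 6 had a value, with a median of 0.036 that turned to -0.0047 when arrays were scaled by their 75th percentile. The coactivator *PPARGC1A* was at 0.24 (3 probes from 0.20 to 0.29) and the factor *NRF1* at -0.21 from 1 dim probe. None of the genes in these 3 lists was past the threshold. The SD of the log2 LN/HN between genes was 0.15 for the 9 TCA cycle genes, 0.071 for the respiratory chain, 0.12 for the general mitochondrial proteins and 0.16 for the transcriptional regulators. Because all lists come from the same pair of arrays, these are descriptions of that pair.

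**Figure D5:**
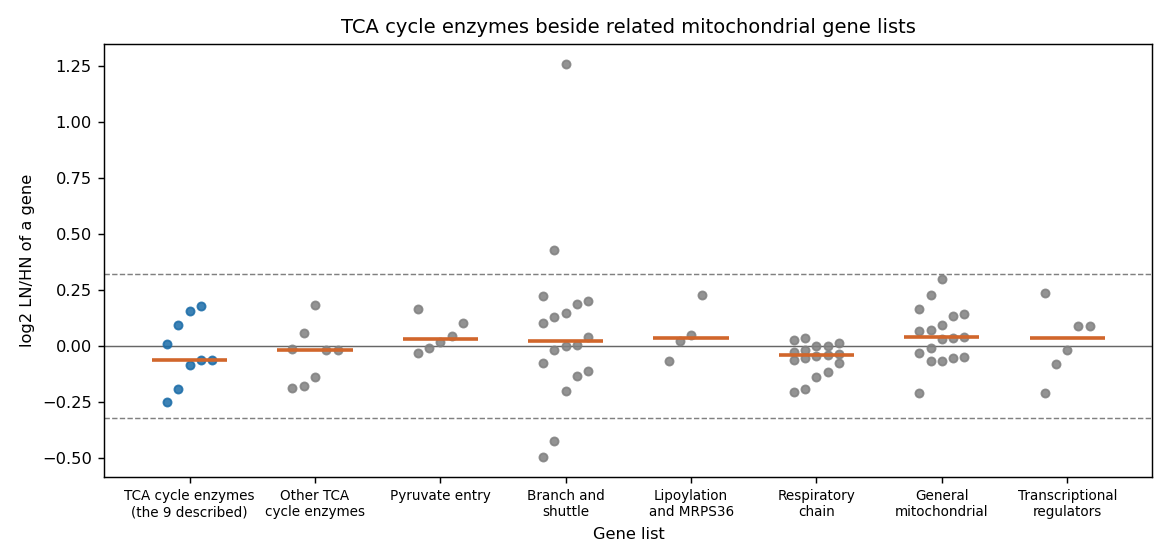
log2 LN/HN (y axis) of single genes in the 9 TCA cycle genes (blue) and in 7 related lists (gray), with the median of each list as an orange bar and the threshold of 0.32 as dashed lines (x axis, gene list). The medians lie between -0.062 and 0.038, and the genes outside the dashed lines, *PCK1*, *ME3*, *ACO1* and *PCK2*, all belong to the branch and shuttle list.

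The labelled tissue was checked with lists of marker genes. Of 10 skeletal muscle fiber markers, 9 had a value, all bright (log2 of their summed signal 19.06 in HN and 18.93 in LN), and 7 were lower in the LN pool, with a median of -0.15. The median was -0.088 for slow fibers (5 of 6 lower) and -0.20 for fast fibers (5 of 7 lower), and these lists share genes. Markers of other cells differed as well. All 5 neutrophil markers with a value were higher (median 1.246, summed signal 9.11 and 10.09), as were all 5 fibroblast markers (0.33, 14.16 and 14.44). Smooth muscle (4 of 4 lower, -0.33, 13.33 and 13.00), macrophage (6 of 7 lower, -0.29, 12.60 and 12.26) and endothelial markers (4 of 5 lower, -0.23, 12.41 and 12.07) went the other way. Of the rest, the median was 0.22 for 3 adipocyte markers (8.85 and 9.16), -0.058 for 5 erythroid markers (14.07 and 14.06) and 0.067 for 4 Schwann cell markers (10.69 and 10.74). *LEP* and *SLC4A1* were not detected on either array. The part of cell composition in the values of the TCA cycle genes was not tested.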

How the data were processed

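Each pool was measured on 1 array. The authors extracted spot signals with Agilent Feature Extraction 11.0.1.1 and deposited background-subtracted, detrended intensity values per spot, with error estimates and flags. They also deposited log2 values for 30027 probes, which GeneSpring GX had quantile-normalized; the log2 scale was judged from the values. The median signal of the 43803 non-control spots was 49.1 (HN) and 48.4 (LN), 74.5% and 70.9% were well above background, and none was saturated. The number of arrays limits the precision.

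Log2 intensities were quantile-normalized with limma 3.58.1 in R 4.3.3, as in the study. Spots with an outlier flag (13, none of the TCA cycle genes) were removed, spots of a probe averaged, and probes well above background on at least 1 array kept at first (32775 of 43652). Where a probe was so on only 1 array, the dim array was given its lowest signal so marked (log2 2.27 in HN, 2.82 in LN) or the probe's own value if higher. Such a probe was then left out unless the array so marked still had the higher signal. Neither step affected a TCA cycle gene. A gene is the mean of its probes. Accessions were matched to symbols through the RefSeq gene table of ARS-UCD2.0 (26742 probes). The array design uses another assembly, so no coordinates are given, and probe sequences were not used here. Python 3.11.15, numpy 2.4.6, pandas 2.3.3 and matplotlib 3.10.9 were used, and the steps were tested on simulated data.

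The genes, lists and rules were chosen with earlier results of these data known. Named genes are the 9 genes, all other cycle and pyruvate entry genes with a value, and, of other lists, genes past 1.25-fold and the extremes; a few list genes, not reported here, were left out of the counts. Alternatives were 3 other normalizations, normexp (offset 50, on median spot signals because mean signals were not used here), the authors' values, 4 filters on dim probes, outlier spots kept, and 3 ways to summarize probes.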

Additional observations from a re-analysis of the deposited data

How the results depend on the processing

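No paired analysis was possible because each group has a single array. Over the 13 alternatives, none of the 9 genes passed the threshold (log2 0.32), 4 or 5 were lower in the LN pool, and the median stayed between -0.069 and 0.011. In 6 of these alternatives the values could not change, by construction. Of 117 values of single genes, 3 changed sign and 4 moved by more than 0.098 (the median SD between probes), all with the brightest probe of each gene. That setting also turned the median of the other cycle enzymes to 0.017 and that of the pyruvate entry genes to -0.0088. The lowest scanner signal of the 9 genes was 89.3, above the background limit on both arrays. The counts of all genes past the threshold (1781 lower, 1731 higher) moved with the processing, and the cause was not tested except where fewer or more genes were used. Lower and higher counts were 391 and 319 after normexp, 3777 and 3125 with every probe positive and significant on 1 array, 3592 and 3251 without a filter on dim probes, and 922 and 899 with RefSeq accessions only (11275 genes). Subtracting the 75th percentile gave 2693 lower and 1191 higher, a share of higher genes of 30.7% against 49.3%. With the array signals not normalized, this share was 39.3%.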
